A study of Mus musculus with 12 samples.

Results

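Chemokines are small secreted proteins, and chemokine receptors are the membrane proteins through which cells sense them. Transcripts of both were followed in the 2 cell fractions of 2 mouse fat depots. The genes were taken by symbol: Ccl, Cxcl, Ccr and Cxcr followed by a number, with Cx3cl1, Cx3cr1, Xcl1 and Ackr1 to Ackr4, and without 5 lymphoid organ genes that the rule leaves out (Ccl19, Ccl21a, Cxcl13, Ccr7 and Cxcr5). This gave 54 symbols at 63 loci (features) among 24890 features under 24358 symbols, namely 35 ligands, 15 signalling receptors and 4 atypical receptors. RNA came from male C57BL/6J mice aged 18 weeks, with no treatment named and with NCD (commonly normal chow diet) in the sample titles. Epididymal adipose tissue (EAT), a visceral depot, and inguinal adipose tissue (IAT), a subcutaneous depot, had been digested with collagenase I into adipocytes and stromal vascular cells (SVCs), the mixture of immune, endothelial, fibroblast-like and other cells that is not adipocytes. The 4 groups, adipocytes of EAT, adipocytes of IAT, SVCs of EAT and SVCs of IAT, had 3 libraries each, numbered 1 to 3 in the labels. The labels name no transgene or mutation in any group. Whether each library stands for 1 mouse or for a pool is not stated in the labels, so the p-values speak only of the spread among the libraries, which may be technical.

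Chemokines bind receptors that couple to inhibitory G proteins, and cells that carry a matching receptor move towards the source. CC and CXC ligands are named after the spacing of their first cysteines. Ccl2, Ccl7 and Ccl12 draw monocytes through Ccr2. Ccl3 to Ccl6 and Ccl9 act on myeloid cells and T cells through Ccr1 and related receptors. Cxcl1, Cxcl2 and Cxcl3 draw neutrophils through Cxcr2, and the interferon-induced Cxcl9 and Cxcl10 draw activated T cells through Cxcr3. Atypical receptors bind chemokines without the usual G protein signal and remove or transport them. In fat, Ccl2 and Ccr2 are best known for the recruitment of monocytes in obesity, and the mice described here were not labelled as obese.

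Levels are in FPKM, fragments scaled to transcript length and to the mapped fragments of the library, so that levels of different genes are compared per length. A feature entered the fit where 3 or more of the 12 libraries reached 1 FPKM, which held for 13175 in all, of which 38 were chemokine or receptor genes. Differences were tested with limma on log2(FPKM + 1), a scale on which the changes of low genes come out smaller than they are. Differences with a Benjamini-Hochberg adjusted p under 0.05 over all 13175 features are referred to as called. Log2 differences are given ± standard error (SE), and group levels as mean ± standard deviation (SD) of 3 libraries. The libraries held an estimated 14.1 M to 24.6 M gene fragments. Median counting bounds over all features were 21.1% to 27.3% near 1 FPKM and 3.33% to 4.11% near 100 FPKM. Bounds are wider for genes with fewer fragments at the same FPKM. Xcl1 had at most 96.2 estimated fragments in any library and Ccl17 at most 79.1, with highest levels of 12.7 and 6.64 FPKM. Across genes, which are not independent of each other, the correlation within a group was 0.982 to 0.996. The first adipocyte library of each depot was often the highest of its group, for 23 of 38 genes in EAT and 29 of 38 in IAT. The fractions matched their labels: 9 of 9 adipocyte markers were higher in adipocytes than in SVCs in both depots. Adipocyte markers were also found in SVCs, with sums of 4460.9 to 5241.4 FPKM in EAT and 6448.8 to 7282.2 FPKM in IAT. In adipocytes the sums were 32267.3 to 43748.1 and 35949.9 to 39766.6 FPKM. Of the 9, 8 were higher in IAT than in EAT SVCs, beside 14.0% of all features, and their part in the SVC results was not tested.

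Markers of several cell types differed between the depots. The summed level of 10 macrophage markers was 503 to 642 FPKM in EAT adipocytes, 90.8 to 134 FPKM in IAT adipocytes, 4478.7 to 4705.3 FPKM in EAT SVCs and 2478.3 to 2717.0 FPKM in IAT SVCs, with no marker at 0. All 10 were lower in IAT than in EAT adipocytes, and 9 of 10 were lower in IAT than in EAT SVCs. T cell markers summed to 0.426 to 0.489 FPKM in EAT adipocytes, with Cd3d and Cd8b1 listed at 0, to 1.98 to 2.55 FPKM in IAT adipocytes, to 18.4 to 18.9 FPKM in EAT SVCs and to 125 to 196 FPKM in IAT SVCs. All 10 T cell markers and 9 of 9 B cell markers were higher in IAT than in EAT SVCs. Endothelial markers summed to 87.6 to 103, 119 to 152, 562 to 594 and 712 to 873 FPKM in that order of groups, with none at 0, and 5 of 8 were higher in IAT than in EAT SVCs. Mesothelial markers, of the lining of visceral organs, were lower in IAT in both fractions for 7 of 7, with sums of 414 to 477 FPKM in EAT SVCs and 2.65 to 3.33 FPKM in IAT SVCs, where Wt1 was listed at 0. Neutrophil markers summed to 8.37 to 20.1, 7.13 to 11.6, 110 to 148 and 59.3 to 72.2 FPKM in the same order, with none at 0. Of 7 markers of lymph node stroma and high endothelium tested, 4 were higher and 2 lower in IAT than in EAT SVCs. Glycam1 was at 0.0184 ± 0.0319 FPKM in EAT and 17.2 ± 11.7 FPKM in IAT SVCs, and Chst4 at 7.26 ± 0.217 and 0.211 ± 0.0212 FPKM. Over all features tested, 10.3% were higher and 27.3% lower in IAT than in EAT adipocytes, and 14.0% higher and 26.2% lower in SVCs. The part of these cell types in the results was not tested. In such bulk samples fewer cells of a type and less RNA per cell cannot be told apart.

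Cxcl1, Cxcl2 and Cxcl3 are close neighbours on chromosome 5 that differed in their depot pattern, and Cxcl10 on the same chromosome stood out in IAT adipocytes, so the DNA before their start sites is shown. Sequences are from RefSeq on GRCm38.p6, 5′ to 3′ on the gene's strand, and end at the base before the transcription start. Cxcl1 (chr5:90891125-90891244, plus strand), Cxcl2 (chr5:90903779-90903898, plus strand) and Cxcl3 (chr5:90785981-90786100, plus strand) are given with the 11-base run that they share in capitals, which holds a match to the NF-kB consensus on both strands. Cxcl10 (chr5:92348890-92349109, minus strand) has 2 NF-kB matches and 1 match to the interferon-stimulated response element in capitals.
Cxcl1: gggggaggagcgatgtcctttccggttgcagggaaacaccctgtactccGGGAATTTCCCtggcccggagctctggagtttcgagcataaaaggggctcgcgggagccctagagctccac
Cxcl2: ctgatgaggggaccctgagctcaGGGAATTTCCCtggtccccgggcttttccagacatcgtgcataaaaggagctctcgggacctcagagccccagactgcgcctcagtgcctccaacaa
Cxcl3: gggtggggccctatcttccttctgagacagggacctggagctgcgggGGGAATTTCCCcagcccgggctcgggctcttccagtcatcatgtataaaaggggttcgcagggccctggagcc
Cxcl10: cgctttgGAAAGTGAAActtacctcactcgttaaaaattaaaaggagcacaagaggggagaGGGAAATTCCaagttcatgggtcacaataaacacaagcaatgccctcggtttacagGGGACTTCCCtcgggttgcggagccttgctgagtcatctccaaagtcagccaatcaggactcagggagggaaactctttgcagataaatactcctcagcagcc
The shared run GGGAATTTCCC begins 71 bases before the start of Cxcl1, 97 before that of Cxcl2 and 73 before that of Cxcl3. It was picked as the longest run that the 3 genes share. Searched on both strands in the 250 bases before the start of each gene, it stood in 14 of 32851 RefSeq windows, a share of 0.0426%. These windows include the 3 that the run was picked from. The NF-kB consensus was found in 3.90% of all windows and in 9 of 49 windows of the chemokine and receptor genes (18.4%). The 9 were those of Ackr2, Ccl9, Ccl20, Ccr3, Ccr6, Cxcl1, Cxcl2, Cxcl3 and Cxcl10. The interferon-stimulated response element, searched as 2 copies of TTTC with 2 bases between them, was in 2.98% of all windows and in 2 of 49 here, those of Cxcl10 and Cxcl14. In the window of Cxcl9 neither was found. These matches describe the letters of the reference only. Of the chemokine genes that hold the shared run, Cxcl1 and Cxcl3 were higher in IAT than in EAT adipocytes and Cxcl2 was lower.

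The ligands were abundant transcripts, and Cxcl1 led in every group. Summed over ligands, the level was 1192.9, 708 and 840 FPKM in the EAT adipocyte libraries, 2170.8, 1777.9 and 1842.2 FPKM in IAT adipocytes, 4630.2, 4163.7 and 4969.0 FPKM in EAT SVCs and 3126.0, 2679.9 and 2764.1 FPKM in IAT SVCs. No 2 groups overlapped: EAT had the lower sum in adipocytes and the higher sum in SVCs. Cxcl1 made up 30.2% ± 3.44 (SD, n = 3) of the EAT adipocyte sum and 47.4% ± 0.708 (SD, n = 3) of the IAT adipocyte sum, against 22.8% ± 0.977 (SD, n = 3) in EAT SVCs and 21.1% ± 1.07 (SD, n = 3) in IAT SVCs. In IAT adipocytes Cxcl1 and Cxcl10 together held 65.2% of the ligand sum. Receptors were far lower: the 15 signalling receptors summed to 19.6 ± 1.29 FPKM in EAT adipocytes, 6.89 ± 1.68 FPKM in IAT adipocytes, 183 ± 12.8 FPKM in EAT SVCs and 199 ± 14.8 FPKM in IAT SVCs, and Cxcr4 alone gave 65.9% to 85.3% of each sum. The 4 atypical receptors summed to 13.5 ± 0.782, 8.72 ± 0.697, 220 ± 8.34 and 197 ± 18.1 FPKM in the same order, with Ackr3 at 72.6% to 86.7% of each.

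**Figure D1:**
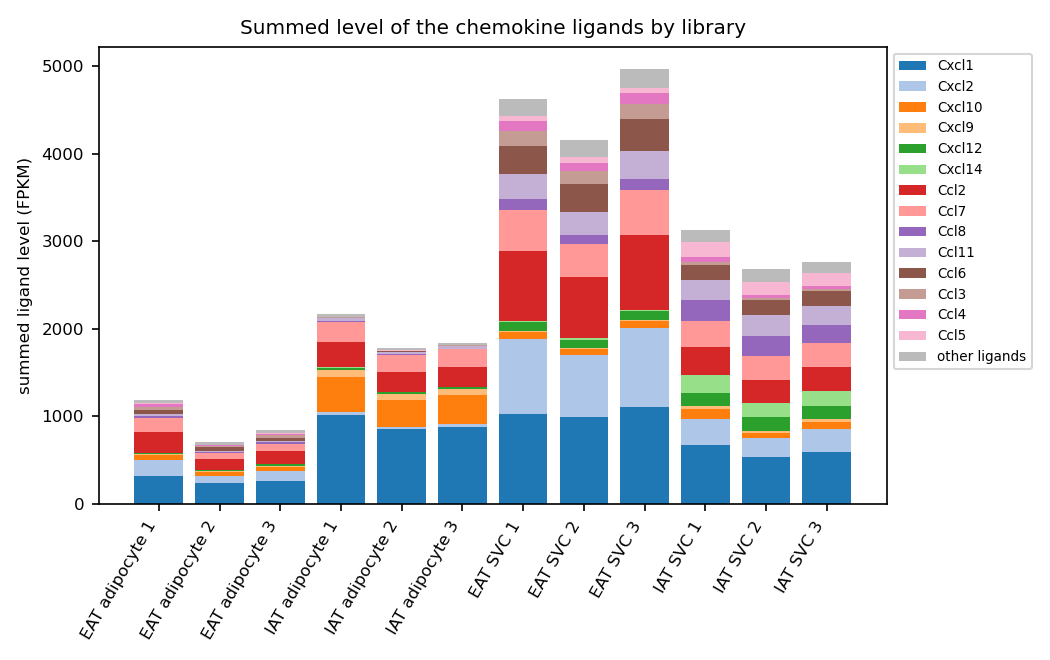
Stacked bars give the summed FPKM of the chemokine ligands in each of the 12 libraries, with 14 ligands in colour and the rest in grey. The 3 IAT adipocyte libraries reach 1777.9 to 2170.8 FPKM, above the 708 to 1192.9 FPKM of EAT adipocytes, and most of the gap is in Cxcl1 and Cxcl10.

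In both depots most of these genes were lower in adipocytes than in SVCs, and more were higher in adipocytes in IAT than in EAT. In EAT 35 of 38 were lower in adipocytes and 2 were higher, Ccl27a and Ccl27b. Over all features tested 83.8% were called in EAT, 52.7% lower and 31.1% higher. Adipocyte and SVC libraries did not overlap for 37 of 38 genes in EAT and 36 of 38 in IAT, nor did they for 83.1% and 88.3% of all features. In IAT 29 of 38 were lower in adipocytes and 6 were higher, namely Cxcl1, Cxcl3, Cxcl9, Cxcl10, Ccl27a and Ccl25. Over all features 83.7% were called in IAT, 53.9% lower and 29.8% higher. The median log2 difference of the 38 genes was -2.37 in EAT and -2.50 in IAT, where that of all features was -0.31 and -0.34. Under median-of-ratios scaling, which moved the medians of all features to 0.00 in EAT and -0.00 in IAT, 33 of the 38 were lower and 2 higher in EAT, and 29 lower and 7 higher in IAT. All 8 signalling receptors tested and all 4 atypical receptors were lower in adipocytes in both depots.

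The depot comparison ran differently in the 2 fractions. Of 38 genes, 10 were higher and 17 lower in IAT than in EAT adipocytes, where 37.6% of all features were called (10.3% higher, 27.3% lower). The adipocyte libraries of the depots did not overlap for 30 of 38, and for 48.3% of all features. In SVCs 9 of 38 were higher and 21 lower in IAT, where 40.2% of all features were called (14.0% higher, 26.2% lower), and the depots did not overlap for 30 of 38, and for 55.1% of all features. The median log2 difference was -0.15 in adipocytes and -0.51 in SVCs, against -0.10 and -0.06 over all features. The interaction, the depot difference in adipocytes minus that in SVCs, was called for 25 of 38 genes, 12 higher and 13 lower, where it was called for 32.5% of all features (14.7% higher, 17.8% lower). Under median-of-ratios scaling the calls over all features were nearly even, 2124 higher and 2197 lower in adipocytes and 2466 and 2547 in SVCs, against 1363 and 3597, and 1843 and 3458, without it. The chemokine and receptor genes then gave 12 higher and 15 lower in adipocytes and 9 and 19 in SVCs. Genes called in both fractions in opposite directions were Cxcl1, Cxcl3, Ccl2, Ccl7, Ccl11, Ccl8 and Cxcr4. Of these, the adipocyte call of Ccl2 and the SVC calls of Ccl7, Ccl11 and Cxcr4 were lost under several alternatives, given below.

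**Figure D2:**
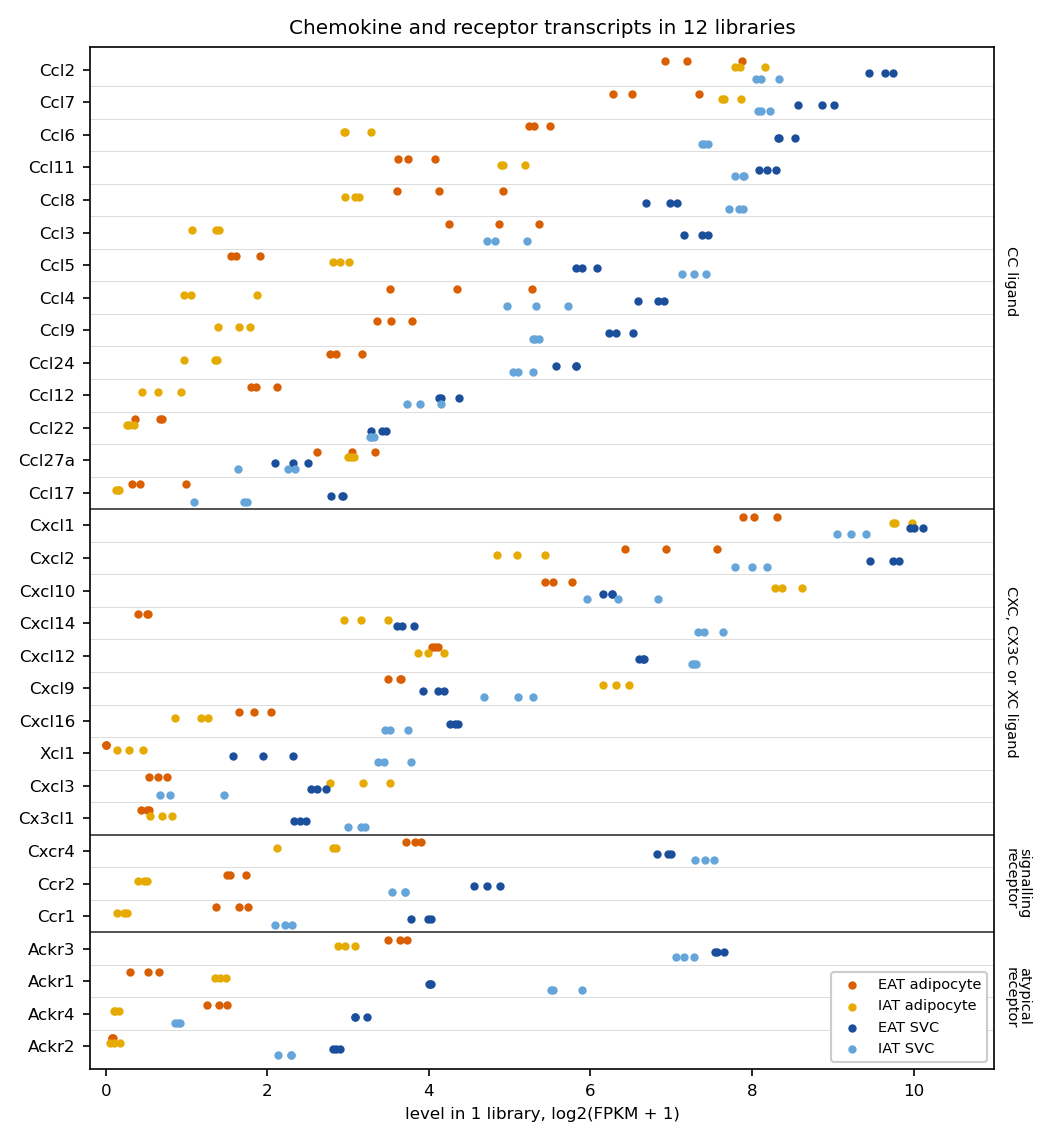
Each point is 1 library, placed by log2(FPKM + 1), for the genes described here with a group mean of at least 5 FPKM, in 4 blocks by role and in colours by group. Cxcl9 and Cxcl10 have their highest points in IAT adipocytes, while the receptor rows have their 6 SVC points to the right of the adipocyte points except for Ackr4, where EAT adipocytes lie above IAT SVCs.

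Of the neutrophil-attracting ligands, Cxcl1 and Cxcl3 were several-fold higher in IAT than in EAT adipocytes and lower in IAT than in EAT SVCs, while Cxcl2 was lower in IAT in both fractions. Cxcl1 (chr5:90891245-90893115) was at 315, 235 and 260 FPKM in EAT adipocytes, 1011.7, 854 and 875 in IAT adipocytes, 1025.2, 995 and 1107.9 in EAT SVCs and 678, 531 and 599 in IAT SVCs. The IAT adipocyte libraries lay far above those of EAT adipocytes and above IAT SVCs, and they overlapped EAT SVCs. Cxcl1 was 3.38-fold higher in IAT than in EAT adipocytes (log2 difference 1.76 ± 0.13, adjusted p = 4.7e-07) and 1.73-fold lower in IAT than in EAT SVCs (log2 difference -0.80 ± 0.13, adjusted p = 3.2e-04), with an interaction of 2.56 ± 0.18 (adjusted p = 4.3e-07). Cxcl3 (chr5:90786101-90788093) was at 0.691, 0.448 and 0.572 FPKM in EAT adipocytes, 10.5, 5.83 and 8.11 in IAT adipocytes, 5.64, 4.8 and 5.1 in EAT SVCs and 1.77, 0.589 and 0.741 in IAT SVCs. Its levels were low in EAT adipocytes and IAT SVCs and higher in the other 2 groups, with no overlap between depots in either fraction. Its interaction was the largest of the 38 in size (4.16 ± 0.29, adjusted p = 3.0e-07), from 2.51 ± 0.20 in adipocytes (adjusted p = 1.1e-06) and -1.65 ± 0.20 in SVCs (adjusted p = 3.1e-05). Cxcl2 (chr5:90903899-90905938) was at 189, 85.4 and 121 FPKM in EAT adipocytes, 42.3, 27.6 and 33.1 in IAT adipocytes, 859, 703 and 901 in EAT SVCs and 291, 220 and 255 in IAT SVCs. IAT adipocytes were lowest and EAT SVCs highest, and no groups overlapped. Cxcl2 was 3.85-fold lower in IAT adipocytes (log2 difference -1.86 ± 0.24, adjusted p = 7.2e-05) and 3.22-fold lower in IAT SVCs (log2 difference -1.68 ± 0.24, adjusted p = 1.1e-04) than in EAT, and its interaction was not called (-0.18 ± 0.34, adjusted p = 0.737). The fourth member of the group, Cxcl5, stayed at or under 0.779 FPKM in every library. Cxcr2, the receptor for these ligands on neutrophils, had means of 0.0321 and 0.0344 FPKM in adipocytes and 0.288 and 0.351 FPKM in SVCs of EAT and IAT and was not tested. Beside these results, 2 of 6 neutrophil markers tested were lower in IAT than in EAT adipocytes, and 5 of 6 were lower in IAT than in EAT SVCs. Over all features 27.3% were lower in IAT adipocytes and 26.2% in IAT SVCs, so the adipocyte count is near that share. The part of neutrophils in the result was not tested.

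Both interferon-induced ligands tested were highest in IAT adipocytes, above the SVCs of the same depot. Cxcl10 (chr5:92346639-92348889) was at 53.7, 42.4 and 45.5 FPKM in EAT adipocytes, 392, 310 and 331 in IAT adipocytes, 75.9, 70.2 and 75.7 in EAT SVCs and 113, 60.9 and 80.1 in IAT SVCs. Every IAT adipocyte library lay above every other library, and the 2 SVC groups overlapped. Cxcl10 was 7.30-fold higher in IAT than in EAT adipocytes (log2 difference 2.84 ± 0.18, adjusted p = 1.3e-07) and 4.06-fold higher in adipocytes than in SVCs of IAT (log2 difference 2.05 ± 0.18, adjusted p = 1.9e-07), while the depots did not differ past the threshold in SVCs (log2 difference 0.15 ± 0.18, adjusted p = 0.548). Cxcl9 (chr5:92321331-92328079) was at 10.3, 11.5 and 11.6 FPKM in EAT adipocytes, 87.9, 70.2 and 78.4 in IAT adipocytes, 17.2, 14.2 and 16.3 in EAT SVCs and 38.1, 24.6 and 33.3 in IAT SVCs. Again the IAT adipocyte libraries were above all others, and IAT SVCs came next. Cxcl9 was 7.08-fold higher in IAT than in EAT adipocytes (log2 difference 2.71 ± 0.14, adjusted p = 1.8e-08) and 2.01-fold higher in IAT than in EAT SVCs (log2 difference 0.95 ± 0.14, adjusted p = 1.3e-04). The interaction was called for Cxcl10 (2.69 ± 0.25, adjusted p = 4.8e-06) and Cxcl9 (1.77 ± 0.19, adjusted p = 2.0e-05). In EAT both were lower in adipocytes than in SVCs, at 63.9% of the SVC mean for Cxcl10 (log2 difference -0.64 ± 0.18, adjusted p = 0.00474) and 70.0% for Cxcl9 (log2 difference -0.48 ± 0.14, adjusted p = 0.00613). Under median-of-ratios scaling these 2 calls in EAT were lost (-0.26, adjusted p = 0.211, and -0.11, adjusted p = 0.449). Cxcl11, next to them on chromosome 5, stayed at or under 0.201 FPKM. Cxcr3, the receptor of the group on activated T cells, had means of 0.248 ± 0.093 and 0.0737 ± 0.0447 FPKM in adipocytes and 2.98 ± 0.409 and 2.61 ± 0.212 FPKM in SVCs of EAT and IAT. Cxcl10 lies within Art3, which was at 199 ± 16 FPKM in EAT adipocytes and 200 ± 7.19 FPKM in IAT adipocytes, where Cxcl10 differed, and at 46.5 ± 3.2 FPKM in EAT SVCs and 47.7 ± 5.22 FPKM in IAT SVCs. The strand setting of the counting was not given in the sources used here, and the part of Art3 reads in the Cxcl10 difference between the fractions of IAT was not tested.

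The 6 genes called higher in adipocytes than in SVCs of IAT differed in the size of that ratio. IAT adipocyte means were 788% of the SVC mean for Cxcl3, 406% for Cxcl10, 246% for Cxcl9, 217% for Ccl27a, 152% for Cxcl1 and 138% for Ccl25. Markers of macrophages, endothelial cells, fibroblasts and T cells gave far lower ratios in IAT: a median of 4% for 10 macrophage markers (3.14% to 44.1%), 18.1% for 8 endothelial markers (highest 21.3%), 3.79% for 9 fibroblast markers (highest 7.85%) and 1.36% for 10 T cell markers (highest 2.19%). The 6 genes were picked for this call and the markers as genes of SVC cell types, so this contrast follows from the choice. The source of these transcripts was not tested. In EAT Cxcl3, Cxcl10, Cxcl9 and Cxcl1 were at 11%, 63.9%, 70.0% and 25.9% of the SVC mean, and Ccl27a and Ccl25 at 180% and 103%, beside medians of 12.7% for macrophage and 16.8% for endothelial markers. Among neutrophil markers, with medians of 3.74% in IAT and 9.09% in EAT, Elane reached 588% and 259% at adipocyte means of 1.17 and 0.953 FPKM. The highest ratio in IAT was 347% among mural cell markers and 104% among natural killer and innate lymphoid cell markers.

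**Figure D3:**
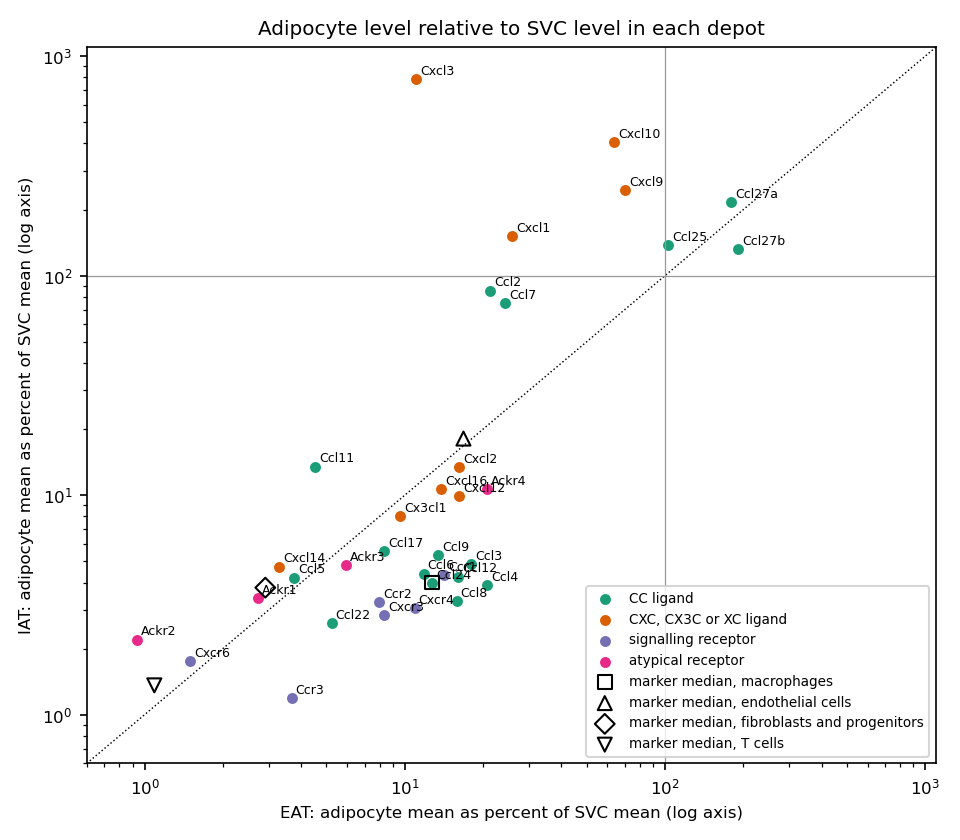
Each point is 1 gene of those described here, with the adipocyte mean as a percent of the SVC mean in EAT on the horizontal axis and in IAT on the vertical axis, both on log scales; open symbols are medians of marker lists, and Xcl1 and Ccr8, with a group listed at 0, are not drawn. Cxcl3, Cxcl10, Cxcl9 and Cxcl1 lie above 100% in IAT and below 100% in EAT.

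Ccl2 and Ccl7 were higher in IAT than in EAT adipocytes, and Ccl8 and Ccl12 were lower. Ccl2 (chr11:82035577-82037452) was at 234, 120 and 145 FPKM in EAT adipocytes, 285, 221 and 229 in IAT adipocytes, 803, 696 and 855 in EAT SVCs and 321, 264 and 275 in IAT SVCs. EAT SVCs were the highest by a wide margin, and the first EAT adipocyte library overlapped the IAT adipocytes. Ccl2 was 2.74-fold lower in IAT than in EAT SVCs (log2 difference -1.45 ± 0.20, adjusted p = 8.2e-05) and its interaction was called (2.05 ± 0.28, adjusted p = 1.3e-04). In adipocytes the depot difference was small (log2 difference 0.61 ± 0.20, adjusted p = 0.0313), and the call was lost without EAT adipocyte library 2 (0.40, adjusted p = 0.118) or 3 (0.53, adjusted p = 0.0986) or IAT adipocyte library 1 (0.49, adjusted p = 0.123) or 3 (0.65, adjusted p = 0.0545). It was also lost with no filter on low values (adjusted p = 0.0686) and with the compared groups alone (adjusted p = 0.107). Adipocytes and SVCs of IAT did not differ past the threshold in Ccl2 (log2 difference -0.23 ± 0.20, adjusted p = 0.294). Ccl7 (chr11:82045712-82047523) was at 162, 76.4 and 90.6 FPKM in EAT adipocytes, 231, 201 and 197 in IAT adipocytes, 465, 380 and 515 in EAT SVCs and 297, 276 and 268 in IAT SVCs. The depots did not overlap in either fraction, IAT being higher in adipocytes and lower in SVCs. Ccl7 was 1.91-fold higher in IAT than in EAT adipocytes (log2 difference 1.00 ± 0.22, adjusted p = 0.00317) with an interaction of 1.69 ± 0.30 (adjusted p = 0.00105). Its depot difference in SVCs (log2 difference -0.68 ± 0.22, adjusted p = 0.0231) lost the call under median-of-ratios scaling (-0.58, adjusted p = 0.0696) and without EAT SVC library 1 or 3 or IAT SVC library 2 or 3 (adjusted p = 0.0637 to 0.0867). The fraction difference in IAT was not called (log2 difference -0.42 ± 0.22, adjusted p = 0.0876) and became called without EAT adipocyte library 1 (adjusted p = 0.00278) or 2 (adjusted p = 0.0456), which enter through the shared spread, and with the compared groups alone (adjusted p = 8.7e-04).

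Ccl8 and Ccl12, in the same gene cluster, went the other way in adipocytes. Ccl8 was at 29.1, 11.2 and 16.4 FPKM in EAT adipocytes, 7.49, 6.78 and 7.75 in IAT adipocytes, 126, 102 and 133 in EAT SVCs and 236, 227 and 209 in IAT SVCs. IAT was lower than EAT in adipocytes and higher in SVCs, with no overlap in either fraction. Ccl8 was 2.58-fold lower in IAT adipocytes (log2 difference -1.16 ± 0.24, adjusted p = 0.00234) and 1.87-fold higher in IAT SVCs (log2 difference 0.90 ± 0.24, adjusted p = 0.00874), with an interaction of -2.06 ± 0.33 (adjusted p = 4.8e-04). Ccl12 was at 3.36, 2.47 and 2.62 FPKM in EAT adipocytes, 0.562, 0.361 and 0.9 in IAT adipocytes, 16.4, 16.8 and 19.8 in EAT SVCs and 16.7, 12.3 and 13.8 in IAT SVCs. Adipocyte libraries of IAT were all under 1 FPKM, and the SVC libraries of the depots overlapped. Ccl12 was 4.64-fold lower in IAT than in EAT adipocytes (log2 difference -1.25 ± 0.14, adjusted p = 2.1e-05), and its interaction was called (-0.96 ± 0.20, adjusted p = 0.00269). Ccr2, the receptor of Ccl2, Ccl7 and Ccl12, was lower in IAT in both fractions. Its levels were 2.32, 1.83 and 1.9 FPKM in EAT adipocytes, 0.424, 0.32 and 0.383 in IAT adipocytes, 25.4, 22.5 and 28.4 in EAT SVCs and 10.7, 12 and 12 in IAT SVCs. IAT was below EAT in adipocytes and in SVCs with no overlap. Ccr2 was 5.37-fold lower in IAT adipocytes (log2 difference -1.13 ± 0.09, adjusted p = 1.6e-06) and 2.20-fold lower in IAT SVCs (log2 difference -1.07 ± 0.09, adjusted p = 1.5e-06). Macrophage markers moved the same way, with 10 of 10 lower in IAT adipocytes and 9 of 10 in IAT SVCs, and their part in the result was not tested.

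The eotaxins, ligands of the eosinophil receptor Ccr3, differed from each other in adipocytes. Ccl11 (eotaxin) was at 15.9, 11.3 and 12.4 FPKM in EAT adipocytes, 35.5, 29.2 and 28.8 in IAT adipocytes, 291, 270 and 314 in EAT SVCs and 237, 235 and 220 in IAT SVCs. SVC libraries were far above adipocytes, and IAT adipocytes were above EAT adipocytes without overlap. Ccl11 was 2.37-fold higher in IAT than in EAT adipocytes (log2 difference 1.19 ± 0.12, adjusted p = 6.9e-06), and its interaction was called (1.52 ± 0.17, adjusted p = 1.8e-05). The small depot difference in SVCs (log2 difference -0.33 ± 0.12, adjusted p = 0.039) lost its call with no filter on low values (adjusted p = 0.0532), under median-of-ratios scaling (adjusted p = 0.207) and without EAT SVC library 1 or 3 or any 1 of the IAT SVC libraries (adjusted p = 0.0677 to 0.133). Ccl24 (eotaxin 2) was at 7.99, 6.22 and 5.87 FPKM in EAT adipocytes, 1.59, 1.56 and 0.956 in IAT adipocytes, 46.8, 55.6 and 55.7 in EAT SVCs and 31.8, 38.2 and 33.3 in IAT SVCs. It was lower in IAT in both fractions, with no overlap. Ccl24 was 4.89-fold lower in IAT adipocytes (log2 difference -1.70 ± 0.13, adjusted p = 7.7e-07) and 1.53-fold lower in IAT SVCs (log2 difference -0.60 ± 0.13, adjusted p = 0.00293), with an interaction of -1.10 ± 0.19 (adjusted p = 6.6e-04). Ccr3 had means of 0.0658 ± 0.0457 and 0.00433 ± 0.0075 FPKM in adipocytes and 1.79 ± 0.0957 and 0.363 ± 0.024 FPKM in SVCs of EAT and IAT. It was 4.94-fold lower in IAT than in EAT SVCs (log2 difference -1.04 ± 0.05, adjusted p = 6.7e-09). Of 8 mast cell and eosinophil markers, 6 were tested and 4 of these were lower in IAT SVCs, beside 26.2% of all features. The sums of the markers were 153 to 164 FPKM in EAT and 106 to 119 FPKM in IAT SVCs. Of the eosinophil markers that were too low to be tested, Siglecf was at 0.969 ± 0.214 and 0.257 ± 0.0349 FPKM in EAT and IAT SVCs, and Epx was at 0.0665 ± 0.0234 FPKM in EAT SVCs and listed at 0 in IAT SVCs. Their part in the Ccr3 result was not tested.

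The ligands Ccl3 to Ccl6 and Ccl9 were SVC transcripts, and all but Ccl5 were lower in IAT than in EAT in both fractions. Ccl3 (macrophage inflammatory protein 1 alpha) was at 40.2, 18 and 28.1 FPKM in EAT adipocytes, 1.64, 1.58 and 1.1 in IAT adipocytes, 166, 142 and 175 in EAT SVCs and 36, 25.4 and 27.2 in IAT SVCs. IAT adipocytes stayed under 2 FPKM, and the EAT adipocyte and IAT SVC libraries overlapped. Ccl3 was 20-fold lower in IAT than in EAT adipocytes (log2 difference -3.55 ± 0.22, adjusted p = 1.4e-07) and 5.44-fold lower in IAT than in EAT SVCs (log2 difference -2.42 ± 0.22, adjusted p = 2.5e-06), with an interaction of -1.13 ± 0.32 (adjusted p = 0.0165). Ccl4, its neighbour and close relative, was at 37.9, 10.5 and 19.3 FPKM in EAT adipocytes, 2.67, 1.07 and 0.962 in IAT adipocytes, 113, 95.1 and 119 in EAT SVCs and 51.7, 30.3 and 39.1 in IAT SVCs. The 3 EAT adipocyte libraries spread widely, and the first of them lay within the range of IAT SVCs. Ccl4 was 14.4-fold lower in IAT adipocytes (log2 difference -3.09 ± 0.37, adjusted p = 3.5e-05) and 2.70-fold lower in IAT SVCs (log2 difference -1.44 ± 0.37, adjusted p = 0.00723). Its interaction (-1.65 ± 0.52, adjusted p = 0.028) lost the call with no filter on low values (adjusted p = 0.0569) and without IAT adipocyte library 2 or 3, EAT SVC library 2 or IAT SVC library 1 or 3 (adjusted p = 0.0529 to 0.0691).

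Ccl6 and Ccl9, mouse chemokines of macrophages, followed the same order with less spread. Ccl6 was at 44.3, 36.7 and 38.4 FPKM in EAT adipocytes, 8.75, 6.81 and 6.75 in IAT adipocytes, 321, 319 and 368 in EAT SVCs and 169, 174 and 165 in IAT SVCs. The 4 groups did not overlap, with EAT SVCs highest and IAT adipocytes lowest. Ccl6 was 5.35-fold lower in IAT adipocytes (log2 difference -2.28 ± 0.10, adjusted p = 5.9e-09) and 1.98-fold lower in IAT SVCs (log2 difference -0.98 ± 0.10, adjusted p = 7.3e-06), with an interaction of -1.30 ± 0.15 (adjusted p = 2.3e-05). Ccl9 was at 12.8, 9.26 and 10.6 FPKM in EAT adipocytes, 2.46, 1.62 and 2.13 in IAT adipocytes, 78.7, 73.8 and 91.4 in EAT SVCs and 38.7, 40.2 and 38 in IAT SVCs. Its groups stood in the same order, also without overlap. Ccl9 was 5.26-fold lower in IAT adipocytes (log2 difference -1.95 ± 0.12, adjusted p = 1.3e-07) and 2.09-fold lower in IAT SVCs (log2 difference -1.04 ± 0.12, adjusted p = 2.2e-05), with an interaction of -0.91 ± 0.17 (adjusted p = 0.0015). The median log2 difference of the 10 macrophage markers was -2.12 in adipocytes and -0.59 in SVCs, and the part of macrophages in these results was not tested.

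Ccl5, made by T cells and natural killer cells among others, was the exception in this group and was higher in IAT. Its levels were 2.75, 2.07 and 1.93 FPKM in EAT adipocytes, 7.06, 6.03 and 6.49 in IAT adipocytes, 55.6, 66.4 and 58.6 in EAT SVCs and 172, 154 and 139 in IAT SVCs. IAT was above EAT in both fractions with no overlap. Ccl5 was 2.90-fold higher in IAT adipocytes (log2 difference 1.22 ± 0.11, adjusted p = 3.1e-06) and 2.58-fold higher in IAT SVCs (log2 difference 1.35 ± 0.11, adjusted p = 6.9e-07), and the 2 differences did not differ past the threshold (-0.13 ± 0.15, adjusted p = 0.563). T cell markers were called higher in IAT than in EAT for 10 of 10 in SVCs and 1 of 10 in adipocytes. Over all features these shares were 14.0% and 10.3%. None of the T cell markers reached 1 FPKM on average in adipocytes, where the pseudocount of 1 compresses differences. Their adipocyte sums were 0.426 to 0.489 FPKM in EAT and 1.98 to 2.55 FPKM in IAT. The adipocyte libraries of the depots did not overlap for 10 of 10 T cell markers, with Cd28 lower in IAT. The part of T cells was not tested. Xcl1, a chemokine of natural killer and T cells, was at 0, 0 and 0 FPKM in EAT adipocytes, 0.372, 0.0996 and 0.221 in IAT adipocytes, 3.98, 2.84 and 1.99 in EAT SVCs and 9.31, 12.7 and 9.84 in IAT SVCs. It was listed at 0 in every EAT adipocyte library and was higher in IAT than in EAT SVCs without overlap (log2 difference 1.58 ± 0.16, adjusted p = 5.4e-06). Its interaction (-1.29 ± 0.23, adjusted p = 8.8e-04) was not called with a pseudocount of 0.1 (-0.22, adjusted p = 0.734).

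Cxcl12 and Cxcl14, ligands made by stromal cells, were higher in IAT SVCs. Cxcl12 (stromal cell-derived factor), the ligand of Cxcr4 and Ackr3, was at 15.5, 16.3 and 15.9 FPKM in EAT adipocytes, 17.2, 13.6 and 14.9 in IAT adipocytes, 99.4, 96.1 and 99.9 in EAT SVCs and 152, 157 and 155 in IAT SVCs. The SVC libraries of the depots were well apart, and the adipocyte libraries overlapped. Cxcl12 was 1.57-fold higher in IAT than in EAT SVCs (log2 difference 0.65 ± 0.08, adjusted p = 2.4e-05), with no depot difference past the threshold in adipocytes (log2 difference -0.06 ± 0.08, adjusted p = 0.562) and an interaction of -0.71 ± 0.11 (adjusted p = 3.2e-04). Cxcl14 (chr13:56288643-56296551) was at 0.421, 0.324 and 0.436 FPKM in EAT adipocytes, 10.3, 6.73 and 7.96 in IAT adipocytes, 11.7, 13.1 and 11.2 in EAT SVCs and 199, 160 and 168 in IAT SVCs. It had the largest depot difference of the 38 genes in SVCs, with IAT above EAT in both fractions and no overlap. Cxcl14 was 14.6-fold higher in IAT SVCs (log2 difference 3.76 ± 0.13, adjusted p = 1.7e-10) and 21.1-fold higher in IAT adipocytes (log2 difference 2.73 ± 0.13, adjusted p = 6.6e-09). Its interaction was -1.04 ± 0.18 (adjusted p = 7.0e-04) and turned to 0.22 (adjusted p = 0.475) with a pseudocount of 0.1, and it lost the call after rescaling to TPM (-0.41, adjusted p = 0.147). Fibroblast and progenitor markers split between the depots in SVCs, with 4 of 9 higher and 5 of 9 lower in IAT, sums of 4723.7 to 5443.9 FPKM in EAT and 5597.2 to 5735.3 FPKM in IAT SVCs and none at 0.

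The 2 ligands with membrane-bound forms were SVC transcripts. Cxcl16, which binds Cxcr6, was at 3.13, 2.13 and 2.57 FPKM in EAT adipocytes, 1.27, 0.819 and 1.4 in IAT adipocytes, 18.2, 19.5 and 19 in EAT SVCs and 12.4, 9.98 and 10.5 in IAT SVCs. It was lower in IAT in both fractions without overlap, by 0.74 ± 0.12 and 0.74 ± 0.12 on the log2 scale (adjusted p = 5.5e-04 and 3.7e-04). Cx3cl1 (fractalkine) was at 0.356, 0.45 and 0.428 FPKM in EAT adipocytes, 0.773, 0.627 and 0.464 in IAT adipocytes, 4.59, 4.3 and 4.02 in EAT SVCs and 8.22, 6.97 and 7.96 in IAT SVCs. It was higher in IAT than in EAT SVCs (log2 difference 0.71 ± 0.09, adjusted p = 2.3e-05). The depot difference in adipocytes was not called (log2 difference 0.20 ± 0.09, adjusted p = 0.0892), though it was with a pseudocount of 0.1 (0.48, adjusted p = 0.0259), under median-of-ratios scaling (0.27, adjusted p = 0.0325) and without IAT adipocyte library 3 (0.27, adjusted p = 0.0422). The interaction (-0.52 ± 0.12, adjusted p = 0.00568) lost its call with a pseudocount of 0.1 (-0.35, adjusted p = 0.26) and after rescaling to TPM (-0.40, adjusted p = 0.13). The receptor Cx3cr1 had means of 0.121 and 0.0304 FPKM in adipocytes and 0.756 and 0.471 FPKM in SVCs of EAT and IAT and was not tested.

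The remaining CC ligands were low. Ccl17, a ligand of Ccr4, was at 0.996, 0.344 and 0.254 FPKM in EAT adipocytes, 0.12, 0.0961 and 0.107 in IAT adipocytes, 6.61, 5.93 and 6.64 in EAT SVCs and 1.14, 2.28 and 2.37 in IAT SVCs. EAT SVCs were highest, and Ccl17 was 3.32-fold lower in IAT than in EAT SVCs (log2 difference -1.37 ± 0.18, adjusted p = 5.7e-05). In adipocytes its difference was not called (log2 difference -0.44 ± 0.18, adjusted p = 0.0757), though it was with a pseudocount of 0.1 (-1.42, adjusted p = 0.00781) and after rescaling to TPM (-0.72, adjusted p = 0.0293). It was also called without EAT adipocyte library 3 (-0.56, adjusted p = 0.0449) or IAT SVC library 1 (adjusted p = 0.0305). The interaction of Ccl17 (0.93 ± 0.25, adjusted p = 0.0145) was not called with a pseudocount of 0.1 (0.32, adjusted p = 0.682) or after rescaling to TPM (0.92, adjusted p = 0.055). Ccl22, the other ligand of Ccr4, was at 0.587, 0.28 and 0.622 FPKM in EAT adipocytes, 0.221, 0.275 and 0.195 in IAT adipocytes, 10.1, 8.7 and 9.71 in EAT SVCs and 8.74, 9.01 and 8.65 in IAT SVCs. SVCs of the depots overlapped, and adipocytes were under 1 FPKM, where the depot call (log2 difference -0.27 ± 0.09, adjusted p = 0.0325) was lost without EAT adipocyte library 1 or 3 or any 1 of the IAT adipocyte libraries (adjusted p = 0.0529 to 0.127). That call was also lost with no filter on low values, under median-of-ratios scaling and with the compared groups alone (adjusted p = 0.0563, 0.0524 and 0.0672). Ccl27a was at 9.04, 5.11 and 7.29 FPKM in EAT adipocytes, 7.43, 7.22 and 6.96 in IAT adipocytes, 3.99, 4.65 and 3.28 in EAT SVCs and 4.08, 2.11 and 3.79 in IAT SVCs. It was higher in adipocytes than in SVCs in both depots, 1.80-fold in EAT (log2 difference 0.69 ± 0.20, adjusted p = 0.00539) and 2.17-fold in IAT (log2 difference 0.96 ± 0.20, adjusted p = 5.4e-04), and its depots overlapped in both fractions. Ccl27a overlaps Il11ra1 at its end, and it has near-identical copies under the name Ccl27b at 4 loci, so that its reads may have been split between them. The 1 Ccl27b locus tested had means of 1.08 ± 0.173 and 0.681 ± 0.282 FPKM in adipocytes and 0.564 ± 0.128 and 0.516 ± 0.0575 FPKM in SVCs of EAT and IAT, and was called higher in EAT adipocytes than in EAT SVCs (log2 difference 0.41 ± 0.11, adjusted p = 0.00328). Its depot call in adipocytes (log2 difference -0.31 ± 0.11, adjusted p = 0.0362) came with overlapping groups and was lost without EAT adipocyte library 1 or 2 or IAT adipocyte library 1 or 2 (adjusted p = 0.0781 to 0.154). It was also lost with no filter on low values, under median-of-ratios scaling and with the compared groups alone (adjusted p = 0.0663, 0.0873 and 0.105). Ccl25 had means of 1.31 ± 0.374 and 1.68 ± 0.127 FPKM in adipocytes and 1.27 ± 0.0942 and 1.22 ± 0.135 FPKM in SVCs of EAT and IAT, and its call in IAT between fractions (log2 difference 0.27 ± 0.10, adjusted p = 0.0258) was lost without IAT adipocyte library 1 or 3 or IAT SVC library 3 (adjusted p = 0.0595 to 0.0945).

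Among the signalling receptors only Cxcr4 was abundant. Cxcr4 (chr1:128588199-128592299), the receptor for Cxcl12 on most leukocytes and on some stromal and endothelial cells, was at 13.2, 12.2 and 13.9 FPKM in EAT adipocytes, 6.19, 3.35 and 6.03 in IAT adipocytes, 127, 112 and 123 in EAT SVCs and 156, 184 and 170 in IAT SVCs. IAT was below EAT in adipocytes and above it in SVCs, with no overlap in either fraction. Cxcr4 was 2.53-fold lower in IAT adipocytes (log2 difference -1.22 ± 0.16, adjusted p = 6.6e-05) and 1.41-fold higher in IAT SVCs (log2 difference 0.49 ± 0.16, adjusted p = 0.0254), with an interaction of -1.71 ± 0.22 (adjusted p = 7.4e-05). The SVC difference lost its call with a pseudocount of 0.1 (adjusted p = 0.052), after rescaling to TPM (adjusted p = 0.109) and without EAT SVC library 2 or 3 or IAT SVC library 2 or 3 (adjusted p = 0.0536 to 0.0928).

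Ccr1 and Ccr2, neighbours on chromosome 9 and typical of myeloid cells, were lower in IAT in both fractions. Ccr1 was at 2.14, 1.58 and 2.38 FPKM in EAT adipocytes, 0.197, 0.169 and 0.106 in IAT adipocytes, 14.9, 12.7 and 15.3 in EAT SVCs and 3.67, 3.26 and 3.95 in IAT SVCs. No groups overlapped, and Ccr1 was 12.9-fold lower in IAT adipocytes (log2 difference -1.38 ± 0.11, adjusted p = 6.5e-07) and 3.94-fold lower in IAT SVCs (log2 difference -1.72 ± 0.11, adjusted p = 4.4e-08). For these receptors the interaction was not called on log2(FPKM + 1), at 0.34 ± 0.15 for Ccr1 and -0.06 ± 0.13 for Ccr2. With a pseudocount of 0.1 it was -1.10 for Ccr1 (adjusted p = 0.00462), opposite in sign, and -1.03 for Ccr2 (adjusted p = 9.5e-04). Adipocyte levels of both were under 1 FPKM in IAT, where the pseudocount weighs most. Of the lymphocyte receptors, Cxcr6 had means of 0.0305 ± 0.0337 and 0.0272 ± 0.009 FPKM in adipocytes and 2.02 ± 0.443 and 1.55 ± 0.178 FPKM in SVCs of EAT and IAT. Ccr8 was at 0.0339, 0.0391 and 0 FPKM in EAT adipocytes, 0, 0 and 0 in IAT adipocytes, 1.52, 1.21 and 1.13 in EAT SVCs and 0.355, 0.694 and 0.502 in IAT SVCs. It was 2.49-fold lower in IAT than in EAT SVCs (log2 difference -0.59 ± 0.08, adjusted p = 7.3e-05) and was listed at 0 in every IAT adipocyte library. The SVC difference of Cxcr6 was not called (log2 difference -0.24 ± 0.09, adjusted p = 0.0606) and was called after rescaling to TPM (-0.37, adjusted p = 0.0328) and without EAT SVC library 2 (-0.37, adjusted p = 0.00126). That of Cxcr3 was not called in SVCs (log2 difference -0.14 ± 0.09, adjusted p = 0.226) or in adipocytes (log2 difference -0.22 ± 0.09, adjusted p = 0.0667). In adipocytes it was called with a pseudocount of 0.1 (-1.0, adjusted p = 0.00393), after rescaling to TPM (-0.41, adjusted p = 0.0197) and with the compared groups alone (adjusted p = 0.0433). It was also called there without EAT adipocyte library 1 (-0.27, adjusted p = 0.0309) or EAT SVC library 1 (adjusted p = 0.0396). While T cell markers were higher in IAT SVCs for 10 of 10, none of these 3 receptors was called higher there. The other lymphocyte receptors, Ccr4, Ccr6, Ccr9 and Ccr10, were too low to be tested. In EAT and IAT SVCs Ccr6 was at 0.168 ± 0.0807 and 0.923 ± 0.263 FPKM, and Ccr9 at 0.143 ± 0.0339 and 0.377 ± 0.129 FPKM. Ccr4 was at 0.495 and 0.483 FPKM and Ccr10 at 0.329 and 0.419 FPKM there.

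The atypical receptors were far higher in SVCs, and each had its own depot pattern. Ackr3, a scavenger of Cxcl12, was at 10.3, 12.3 and 11.5 FPKM in EAT adipocytes, 7.48, 6.35 and 6.77 in IAT adipocytes, 186, 200 and 188 in EAT SVCs and 154, 132 and 142 in IAT SVCs. It was lower in IAT in both fractions with no overlap (log2 difference -0.65 ± 0.09, adjusted p = 7.8e-05 in adipocytes, log2 difference -0.42 ± 0.09, adjusted p = 0.00169 in SVCs). Its interaction was not called (-0.23 ± 0.12, adjusted p = 0.164) and was called without EAT adipocyte library 1 (-0.30, adjusted p = 0.042). Ackr1, which carries chemokines across the endothelium of venules, was at 0.575, 0.234 and 0.433 FPKM in EAT adipocytes, 1.8, 1.67 and 1.56 in IAT adipocytes, 15, 15.3 and 15.2 in EAT SVCs and 58.3, 44.7 and 45.5 in IAT SVCs. IAT was above EAT in both fractions, 4.05-fold in adipocytes (log2 difference 0.93 ± 0.11, adjusted p = 3.4e-05) and 3.26-fold in SVCs (log2 difference 1.63 ± 0.11, adjusted p = 1.1e-07). Its interaction (-0.70 ± 0.15, adjusted p = 0.00402) turned to 0.16 (adjusted p = 0.718) with a pseudocount of 0.1 and lost the call after rescaling to TPM (-0.28, adjusted p = 0.306). Endothelial markers were higher in IAT for 4 of 8 in adipocytes and 5 of 8 in SVCs, beside 10.3% and 14.0% of all features. The medians of these markers were 0.38 and 0.43 (log2), and their part was not tested. Ackr4, a scavenger of ligands of Ccr7 and Ccr9, was at 1.64, 1.38 and 1.82 FPKM in EAT adipocytes, 0.0832, 0.116 and 0.0732 in IAT adipocytes, 7.47, 8.39 and 7.5 in EAT SVCs and 0.808, 0.856 and 0.895 in IAT SVCs. EAT SVCs were highest and IAT adipocytes lowest, with no overlap between any groups. Ackr4 was 9.13-fold lower in IAT than in EAT SVCs (log2 difference -2.24 ± 0.07, adjusted p = 1.3e-10) and 17.8-fold lower in IAT than in EAT adipocytes (log2 difference -1.26 ± 0.07, adjusted p = 5.7e-08), and its interaction (0.99 ± 0.10, adjusted p = 1.2e-05) turned to -0.12 (adjusted p = 0.682) with a pseudocount of 0.1. It lies within Acad11, which was at 45.4 ± 4.36 and 29.6 ± 1.78 FPKM in EAT and IAT adipocytes and at 3.61 ± 0.200 and 3.11 ± 0.271 FPKM in SVCs. Mesothelial markers were lower in IAT in both fractions for 7 of 7, and their part in the Ackr4 result was not tested. Ackr2, a scavenger of inflammatory CC ligands, was at 0.0583, 0.0538 and 0.0622 FPKM in EAT adipocytes, 0.133, 0.0353 and 0.0778 in IAT adipocytes, 6.2, 6.45 and 6.04 in EAT SVCs and 3.88, 3.92 and 3.4 in IAT SVCs. It was close to 0 in adipocytes and 1.67-fold lower in IAT than in EAT SVCs (log2 difference -0.61 ± 0.06, adjusted p = 7.5e-06).

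**Figure D4:**
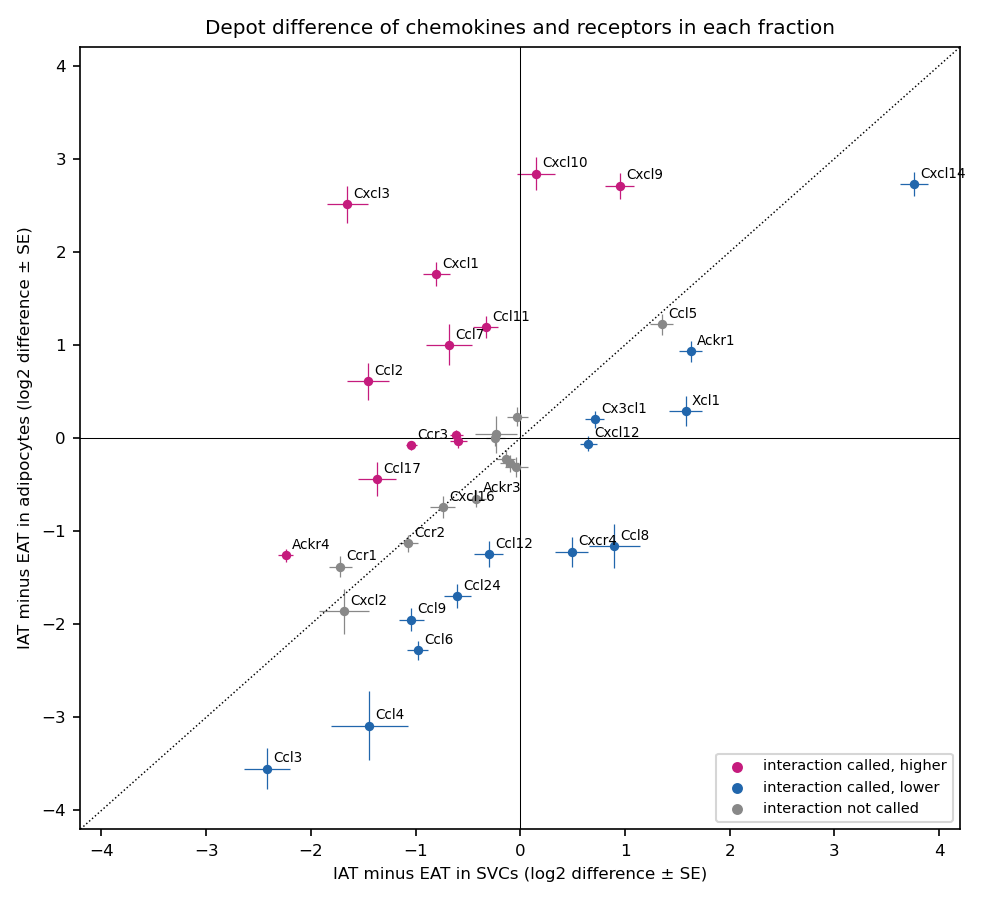
Each point is 1 gene tested, of those described here, with the IAT minus EAT log2 difference in SVCs on the horizontal axis and in adipocytes on the vertical axis; bars are ± SE, colours show the interaction call, and the dotted line marks equal differences. Cxcl3, Cxcl1, Ccl2, Ccl7 and Ccl11 lie in the upper left, higher in IAT adipocytes and lower in IAT SVCs, and Ccl8 and Cxcr4 lie in the lower right.

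Several of these genes are neighbours, and some clusters held genes with opposite depot differences. In the chromosome 11 cluster chr11:82035577-82179812 Ccl2, Ccl7 and Ccl11 were higher in IAT than in EAT adipocytes, and Ccl12 and Ccl8 were lower. The Ccl2 call there was lost under several alternatives. In the second cluster of CC ligands, chr11:83525779-83664683, Ccl9, Ccl6, Ccl3 and Ccl4 were lower in IAT in both fractions, and Ccl5 was higher in both. On chromosome 5 the cluster chr5:90759298-90905938 holds Cxcl3 and Cxcl1, higher in IAT adipocytes, and Cxcl2, lower there, and the cluster chr5:92321331-92363296 holds Cxcl9 and Cxcl10, both highest in IAT adipocytes. On chromosome 9 the receptors Cxcr6, Ccr1, Ccr3 and Ccr2 each had their highest mean in EAT SVCs.

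The genes that act downstream of the receptors were mostly lower in adipocytes, with 1 clear exception. Of 32 signalling genes tested, 27 were lower and 2 higher in adipocytes in EAT, and 27 were lower and 1 higher in IAT, beside 52.7% and 53.9% of all features lower and 31.1% and 29.8% higher. Gnai1, an inhibitory G protein subunit, was the exception, at 173 ± 12.0 FPKM in EAT adipocytes and 96.5 ± 1.61 FPKM in IAT adipocytes against 7.44 ± 0.151 and 4.98 ± 0.164 FPKM in SVCs. Its log2 difference was 4.36 ± 0.06 in EAT (adjusted p = 1.9e-14) and 4.03 ± 0.06 in IAT (adjusted p = 5.4e-14). Rac2, a small GTPase of blood cells, was at 2.18 ± 0.347 and 1.22 ± 0.279 FPKM in adipocytes and 32.4 ± 1.63 and 51.5 ± 9.21 FPKM in SVCs of EAT and IAT. Between the depots, 18 of 32 were lower and 1 higher in IAT adipocytes, and 11 were lower and 7 higher in IAT SVCs. Over all features 27.3% were lower and 10.3% higher in IAT adipocytes, and 26.2% were lower and 14.0% higher in IAT SVCs. Rgs1, which shortens G protein signals in immune cells, was at 6.48 ± 1.61 FPKM in EAT and 0.977 ± 0.256 FPKM in IAT adipocytes (log2 difference -1.90 ± 0.16, adjusted p = 1.3e-06).

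Genes that process or present chemokines, with related chemotactic receptors, gave 17 of 19 lower and 1 higher in adipocytes in EAT and 16 lower and 2 higher in IAT, where 52.7% and 53.9% of all features were lower. Dpp4, a peptidase that trims several chemokines and a marker of fat progenitors, was at 0.811 ± 0.173 and 0.624 ± 0.0751 FPKM in EAT and IAT adipocytes and at 27.9 ± 0.833 and 23.5 ± 1.34 FPKM in SVCs. Between depots 9 of 19 were lower and 1 higher in IAT adipocytes, and 10 of 19 were lower in IAT SVCs, beside 27.3% and 26.2% of all features lower. Ccrl2, which binds chemerin and presents it to other cells, was at 5.38 ± 0.962 FPKM in EAT and 0.903 ± 0.169 FPKM in IAT adipocytes (log2 difference -1.74 ± 0.12, adjusted p = 2.4e-07) and at 35.5 ± 1.54 and 7.74 ± 0.938 FPKM in EAT and IAT SVCs (-2.07 ± 0.12, adjusted p = 2.2e-08). The complement receptors C3ar1 and C5ar1 were lower in IAT adipocytes by 1.93 ± 0.09 and 1.91 ± 0.10 on the log2 scale. Sdc4, a heparan sulfate proteoglycan, was at 46.0 ± 9.57 and 44.2 ± 1.92 FPKM in adipocytes and at 106 ± 7.77 FPKM in EAT and 41.9 ± 1.15 FPKM in IAT SVCs, with an interaction of 1.28 ± 0.17 (adjusted p = 8.0e-05).

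The other genes of the family were under the low-value filter. The 25 features not tested belong to 16 symbols with no tested locus, Ccl1, Ccl20, Ccl21b, Ccl26, Ccl28, Cxcl5, Cxcl11, Cxcl15, Cxcl17, Ccr4, Ccr6, Ccr9, Ccr10, Cx3cr1, Cxcr1 and Cxcr2, and to further loci of Ccl27b. The highest single value among them was 2.1 FPKM, for Ccl1 in EAT SVC library 3, and 6 of these features were listed at 0 in every library. Ccr6, of B cells and some T cells, reached 1.22 FPKM in IAT SVC library 3. Ccr10, the receptor for Ccl27a and Ccl28, had means of 0.334 and 0.711 FPKM in adipocytes and 0.329 and 0.419 FPKM in SVCs of EAT and IAT. Of the 38 tested, 37 had a mean of at least 1 FPKM in EAT SVCs, 34 in IAT SVCs, 26 in EAT adipocytes and 23 in IAT adipocytes.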

How the data were processed

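The deposited tables, 1 per library, hold FPKM values with lower and upper bounds. Per the submitters' processing notes, the authors used TopHat and Cufflinks with the mouse build GRCm38 (mm10). The sources used here give no tool versions, annotation, strand setting or read length. Genes were kept by symbol and locus, and 9 features with a failed estimate in any library were left out. The bounds gave the estimated fragments behind each value, and they cover counting error only. No count test was run, since the tables hold no counts.

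Features that reached 1 FPKM in 3 or more libraries were fitted on log2(FPKM + 1), over all 12 libraries with 4 group means, by limma 3.58.1 (lmFit, contrasts.fit, eBayes with trend) in R 4.3.3, with 5 contrasts. Tests were two-sided with Benjamini-Hochberg adjustment over all features tested, and the fit was tested on simulated data. Genes with a group mean of at least 5 FPKM were given by library, as was Ccr8, and the others by means or ranges. Some genes counted in the totals are not reported here by name. From each pathway list, up to 4 genes with the smallest p in a contrast could be named. The genes and lists were chosen with earlier results of these data known. Alternatives were a pseudocount of 0.1, no filter, a mean filter, TPM, median-of-ratios scaling, eBayes without trend, the compared groups alone, a replicate block and leaving out each library. Promoter sequences came from RefSeq tables. Plots used matplotlib 3.10.9, and tables used pandas 2.3.3 and NumPy 2.4.6 under Python 3.11.15.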

Additional observations from a re-analysis of the deposited data

Results flagged for a closer look

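For 25 of the 38 genes tested, the IAT minus EAT difference in adipocytes differed from that in SVCs by limma's interaction test at an adjusted p under 0.05. The values are the adipocyte difference minus the SVC difference on the log2(FPKM + 1) scale. Among ligands above 0 were Cxcl3 at 4.16, Cxcl10 at 2.69, Cxcl1 at 2.56, Ccl2 at 2.05, Cxcl9 at 1.77, Ccl7 at 1.69, Ccl11 at 1.52 and Ccl17 at 0.93. Ligands below 0 were Ccl8 at -2.06, Ccl4 at -1.65, Ccl6 at -1.30, Xcl1 at -1.29, Ccl3 at -1.13, Ccl24 at -1.10, Cxcl14 at -1.04, Ccl12 at -0.96, Ccl9 at -0.91, Cxcl12 at -0.71 and Cx3cl1 at -0.52. Among receptors, Ackr4 at 0.99, Ccr3 at 0.95, Ackr2 at 0.64 and Ccr8 at 0.56 were above 0, and Cxcr4 at -1.71 and Ackr1 at -0.70 were below 0. For Ccr3, Ccr8 and Ackr2 the adipocyte levels were at or near 0 in both depots, so that the value is close to the SVC difference with its sign turned. With a pseudocount of 0.1 the interaction was not called for Ackr1, Cxcl14, Ackr4, Xcl1, Cx3cl1 and Ccl17. That of Ccl4 lost its call with no filter and without some single libraries. Ackr4, listed above 0, was 17.8-fold lower in IAT than in EAT adipocytes and 9.13-fold lower in SVCs.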

How the results depend on the processing

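Calls of the 38 genes were the same under all alternatives run for 34 in the depot comparison of SVCs, 29 in that of adipocytes, 36 and 35 in the fraction comparisons of EAT and IAT, and 24 in the interaction. Of the counts, the genes higher in adipocytes were 1 in place of 2 in EAT with a filter on a mean of at least 1 FPKM, which leaves fewer genes, and 10 in place of 6 in IAT with no filter, which adds genes under 1 FPKM. With a pseudocount of 0.1 the interaction changed sign for Ackr1 (0.16), Cxcl14 (0.22), Ackr4 (-0.12) and Ccr1 (-1.10), genes with adipocyte levels that the pseudocount of 1 compresses. Leaving out each library in turn gave 9 to 11 higher and 15 to 18 lower in IAT adipocytes, 8 to 9 and 19 to 22 in IAT SVCs, 2 and 35 in EAT adipocytes against SVCs, 5 to 6 and 29 to 30 in IAT adipocytes against SVCs, and 12 to 13 and 12 to 14 for the interaction. With the replicate block the counts were 10 and 17, 9 and 21, 2 and 35, 6 and 30, and 12 and 13 in that order. Of single genes it lost the depot call of Ccl27b in adipocytes (adjusted p = 0.0534) and gained those of Cxcr3 in adipocytes (0.0488) and of Ccl7 between the fractions of IAT (0.0479). Deviations of libraries with the same number correlated at -0.312 to 0.373 between groups. Those of libraries with different numbers correlated at -0.459 to 0.367. Whether the numbers pair the libraries was not tested. Depth limits values under about 1 FPKM most. Near 1 FPKM the median counting bounds over all features were 21.1% to 27.3%, and genes with few fragments have wider ones.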
